A study of Danio rerio with 16 samples.

Results

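Cells that carried the postnb:citrine reporter were compared with cells that carried neither reporter, both sorted by fluorescence from the apex of the zebrafish ventricle 7 days after cryoinjury (7 dpi), an injury made by cold. The comparison takes 9 of the 16 libraries of the series, chosen by their labels. There are 3 libraries of citrine-positive cells, from pools 7, 9 and 10, and 6 libraries of double-negative cells, from pools 5 to 10, so that pools 7, 9 and 10 gave both sorts. All groups came from adult fish of 3 to 9 months that were double transgenic for postnb:citrine and kdrl:mCherry, the second of which labels endothelial and endocardial cells. Each library is a pool of the apexes of 3 to 5 hearts, so the values are pool averages and not those of single fish. The double-negative sort is defined by what it lacks and holds every other cell type of the apex, together with any stromal cell whose citrine fell below the gate. Citrine-positive and double-negative cells of uninjured hearts were not analysed here, so the comparison is one between cell populations of the same injured tissue and not one of injury.

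Periostin is a secreted matricellular protein that binds collagen, and in the injured heart it is made by activated fibroblasts. In zebrafish many of these cells come from the epicardium, the outer mesothelial layer, and they build a transient collagen-rich scar that is later cleared while new muscle grows. Around them lie endocardium and vessels, blood cells, macrophages and neutrophils that clear debris, and cardiomyocytes at the edge of the wound.

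Values are TPM, transcript abundances that are corrected for gene length and sum to 1000000 in each library, so genes can be compared within a library. Citrine-positive values are given in the order of pools 7, 9 and 10, and double-negative values as the lowest to the highest of the 6 libraries with their median. A log2 fold change is the citrine-positive minus the double-negative mean of log2(TPM + 1), given with its standard error, so a positive value means higher in citrine-positive cells and the change of low genes is understated. A gene was called where limma's adjusted p (Benjamini-Hochberg over all genes tested) was under 0.05. Gene symbols are those paired with the Ensembl IDs, and the ID is added where several tested IDs share a symbol.

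The libraries differed in ways that the sorts did not explain. From 12291 to 15401 IDs reached 1 TPM in the citrine-positive libraries and 14090 to 16854 in the double-negative libraries, while the sequencing depth is unknown. A group of 15 abundant IDs without an informative gene name held 60.2 to 64.1% of all TPM in the citrine-positive libraries and 29.2 to 61.4% in the double-negative libraries, which lowers the TPM of every other gene where that share is high. Of these, 2 IDs made up 26.05 to 35.8% of the TPM in both sorts of pools 9 and 10, but no more than 2.09% in pools 5 to 8, so pools 9 and 10 and pools 5 to 8 were also analysed apart. Pools 9 and 10 are a larger part of the citrine-positive libraries than of the double-negative ones, and the main fit has no pool term. The citrine-positive library of pool 7 stood apart by its cardiomyocyte transcripts, which are described with the cell type markers. Since these are bulk libraries, fewer cells of a type and less RNA per cell cannot be told apart.

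Among 19039 genes tested, 338 (1.78%) were higher in citrine-positive cells and 1538 (8.08%) were lower, 9.85% in all. The 15 largest rises, described below, included matrix genes such as TNC and thbs2b and the keratins krt4 and krt91, and the 15 largest falls included 5 globins and leukocyte genes such as ptprc. Of the 338 higher genes, 290 had no overlap between the 3 citrine-positive and 6 double-negative libraries, and 330 were higher in all 3 same-pool pairs. Of the 1538 lower genes, 1409 had no overlap, 1511 were lower in all 3 pairs and 252 were listed at 0 in all 3 citrine-positive libraries. Over all genes tested the groups did not overlap in 16.6%, with the citrine-positive libraries above in 3.83% and below in 12.7%. For the pairs and the values of 0 no share over all genes is given. These counts come from the libraries that gave the calls, so they are no separate support for them.

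The higher calls were fewer and less stable than the lower ones. The filter asked for 1 TPM in 3 libraries. A gene found in citrine-positive cells alone needed all 3 of its libraries, and one found in double-negative cells alone 3 of 6. Such genes were admitted through the group where they are high, and what this did to the counts was not tested. The median log2 fold change of all genes tested was -0.23, and it was -0.04 after rescaling by median-of-ratios size factors, where 883 genes were higher and 1567 lower, so that 36.0% of the calls were higher in place of 18.02%. With the 15 abundant unnamed IDs removed, a setting chosen after seeing the data, 697 were higher and 1522 lower (31.4%). With the pool as a block, 162 genes (0.875% of the 18522 tested there) were higher and 1145 (6.18%) lower. Within pools 9 and 10 (2 libraries against 2) 263 of the 15799 genes tested there were higher and 1082 lower. Within pools 5 to 8 (1 citrine-positive library against 4) the median log2 fold change of the 16003 genes tested was -0.58. A gene found only in that citrine-positive library could not pass the filter there, so its higher and lower calls are not compared. Leaving out 1 library at a time gave 195 to 356 higher and 1090 to 1568 lower genes, with the fewest of both without the citrine-positive library of pool 9, and 105 higher and 838 lower genes stayed called in all 9 such fits.

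**Figure D1:**
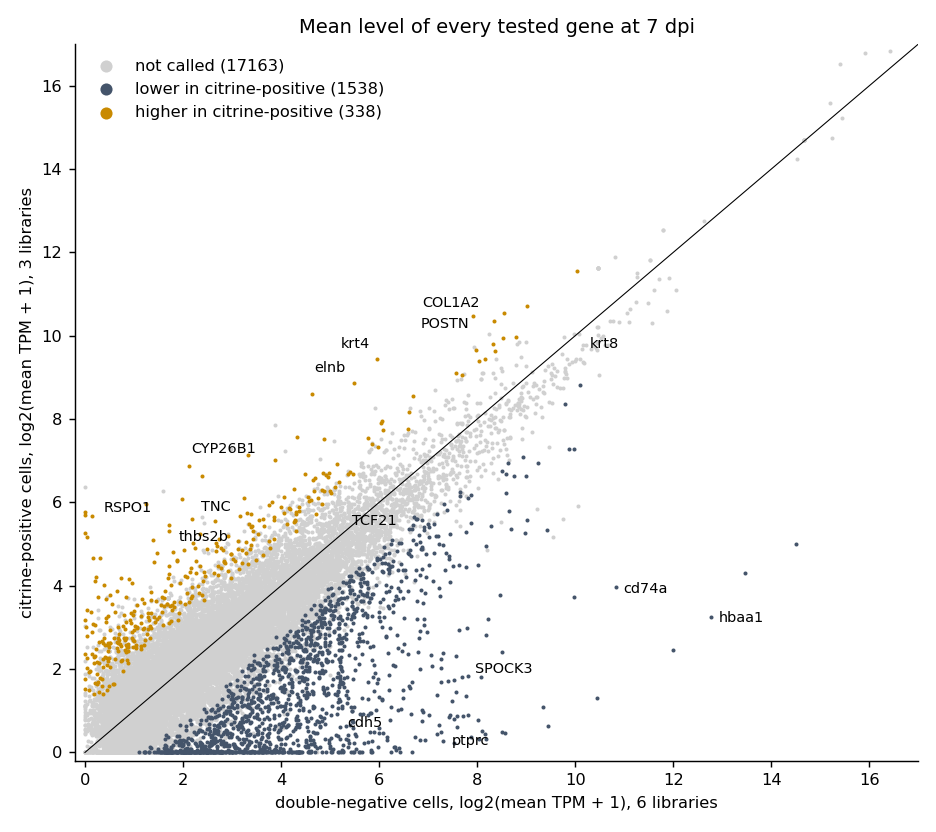
Mean level of each of the 19039 tested genes in citrine-positive cells (vertical axis, 3 libraries) against double-negative cells (horizontal axis, 6 libraries), both as log2(mean TPM + 1), with the diagonal marking equal levels. The 338 higher genes (orange) lie above the diagonal and the 1538 lower genes (blue) below it, many of the latter at 0 in citrine-positive cells. The point named POSTN is ENSDARG00000104267.

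The sort was checked first at the reporters' own genes and at defining markers. kdrl measured 0.74, 1.73 and 0.82 TPM in the citrine-positive libraries and 24 to 57 TPM with a median of 33.1 in the double-negative libraries (log2 fold change -4.13 ± 0.34, adjusted p = 2.71e-07), so the gene behind the mCherry reporter, a VEGF receptor of endothelium, was low in the citrine-positive sort and still present in the double-negative one. Periostin is given under a pair of IDs, and neither is named as postna or postnb in the gene table. POSTN (ENSDARG00000104267) measured 715, 932 and 1532 TPM in the citrine-positive libraries and 202 to 426 TPM with a median of 273 in the double-negative libraries, with no overlap, but the difference of 1.798 ± 0.68 did not pass the test (adjusted p = 0.112). After median-of-ratios scaling it did (adjusted p = 0.0474). For POSTN (ENSDARG00000043806) the values were 38.7, 196 and 382 TPM against 15 to 251 TPM with a median of 83.4 (log2 fold change 0.91 ± 0.78, adjusted p = 0.566).

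PDGFRA, the PDGF receptor of fibroblasts, was higher, at 34.1, 58.4 and 43 TPM against 10.3 to 28.1 TPM with a median of 17 (log2 fold change 1.31 ± 0.41, adjusted p = 0.0468), a call that was lost without any 1 citrine-positive library and without the double-negative library of pool 5, 7, 8 or 10. TCF21, the transcription factor that marks epicardium and cardiac fibroblasts in zebrafish, measured 36.9, 54.1 and 83.7 TPM against 20.7 to 47.8 TPM with a median of 37.6 and did not pass the test (log2 fold change 0.64 ± 0.39, adjusted p = 0.38). The groups overlapped for TCF21 and not for cdh5 or ptprc, the cell adhesion gene of endothelium and the pan-leukocyte phosphatase CD45. cdh5 measured 0.47, 0.93 and 0.77 TPM against 30.8 to 114 TPM with a median of 73.2 and ptprc 0.43, 0.08 and 0.1 TPM against 119 to 228 TPM with a median of 150.4. acta2, the smooth muscle actin often used for myofibroblasts, was at 24.2, 93.2 and 41.2 TPM against 9.99 to 25 TPM with a median of 16.4 (log2 fold change 1.43 ± 0.81, adjusted p = 0.333), with pool 7 inside the double-negative range.

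Collagen genes were higher as a group in citrine-positive cells. Of 9 fibrillar collagen genes tested, 8 rose and none fell, and of 15 fibril-associated and other non-fibrillar collagens 8 rose and none fell, against 1.78% of all genes. The median log2 fold change was 1.82 for the first list and 1.36 for the second. The risers include both chains of type I collagen, the main fibre of scar, together with types V and XI, which regulate fibril diameter, and type VI, which forms the beaded filaments around cells.

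The highest collagen was col1a1a, a type I chain, at 662, 1937 and 2463 TPM against 261 to 856 TPM with a median of 486 (log2 fold change 1.64 ± 0.48, adjusted p = 0.0349). COL1A2, the partner chain, measured 515, 1462 and 1924 TPM against 162 to 549.8 TPM with a median of 293 (log2 fold change 1.95 ± 0.50, adjusted p = 0.0163). For both genes the pool 7 citrine-positive library lay inside the double-negative range and pools 9 and 10 lay above it. COL5A1 (498, 854 and 1328 TPM against 211 to 495 TPM with a median of 288; log2 fold change 1.44 ± 0.37, adjusted p = 0.0155) did not overlap between the sorts.

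Type XI collagen showed the largest differences of the fibrillar list. col11a1b measured 97.5, 176 and 278 TPM in the citrine-positive libraries and 18.4 to 47.2 TPM with a median of 26.2 in the double-negative libraries (log2 fold change 2.60 ± 0.47, adjusted p = 9.91e-04), and COL11A1, at 5.67, 11.4 and 18.5 TPM against 0.59 to 2.18 TPM with a median of 0.99, had a log2 fold change of 2.43 ± 0.40 (adjusted p = 4.30e-04). Neither gene overlapped between the sorts. The other fibrillar risers were COL1A1 (1.88 ± 0.51), col5a3a (1.82 ± 0.50) and COL5A2 (1.305 ± 0.41), and COL11A2, under 2 TPM in every library, did not pass (log2 fold change -0.34 ± 0.38, adjusted p = 0.689).

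Among the non-fibrillar genes, all 4 measured chains of type VI collagen rose. col6a4a was the closest between replicates, at 116, 108 and 139 TPM against 22.7 to 52.4 TPM with a median of 33 (log2 fold change 1.81 ± 0.31, adjusted p = 5.13e-04), and COL6A2 measured 331, 529 and 778 TPM against 113 to 300.5 TPM with a median of 182 (log2 fold change 1.505 ± 0.34, adjusted p = 0.00567). Neither overlapped, and the remaining chains were col6a1 (1.40 ± 0.38) and COL6A3 (1.29 ± 0.35). COL12A1 (ENSDARG00000019601), a fibril-associated collagen, was at 245, 187 and 279.8 TPM against 43.6 to 114 TPM with a median of 55 (log2 fold change 1.92 ± 0.45, adjusted p = 0.00913), and the second ID of that name, COL12A1 (ENSDARG00000078322), at 754, 711 and 896 TPM against 179 to 576 TPM with a median of 282 (log2 fold change 1.36 ± 0.42, adjusted p = 0.0472). COL9A2 (2.80 ± 0.71) and col21a1 (1.67 ± 0.49) also rose. The 7 non-fibrillar genes that did not pass ranged from -0.39 ± 0.44 for COL14A1 to 1.82 ± 0.58 for COL8A1, and col16a1, at 94.5, 322 and 392 TPM against 70.22 to 148 TPM with a median of 118, overlapped in pool 7 only.

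The collagen calls depended most on the citrine-positive libraries of pools 9 and 10. Of these 16 called genes, 15 still passed without the citrine-positive library of pool 7, 5 without that of pool 9 and 4 without that of pool 10. Leaving out 1 double-negative library, 12 to 15 passed, the fewest without that of pool 5, 7 or 8, and 10 passed with the pool as a block, where the others had adjusted p-values of 0.0582 to 0.128. The medians were 1.78 within pools 9 and 10 and 0.86 within pools 5 to 8 for fibrillar collagens, and 1.63 within pools 9 and 10 and 0.97 within pools 5 to 8 for the others. Within pools 9 and 10, 8 genes of each list passed, and within pools 5 to 8 none of the 8 and 15 tested passed limma's test, with 1 and 4 at an unadjusted p under 0.05. Values here that 1 library moved by over 1.5 times are given without it. With the citrine-positive library of pool 7 left out, the log2 fold change was 2.54 for COL1A1. For the fit without the citrine-positive library of pool 9, the log2 fold change was 2.01 for COL9A2. Fitted without the citrine-positive library of pool 10, the log2 fold change was 3.54 for COL9A2.

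Other matrix genes rose in part, with the largest folds among matricellular proteins, which bind cells and matrix without forming fibres. The matricellular list had 7 higher and 1 lower of 28 tested, the elastic fibre list 4 higher and 0 lower of 11 tested, the proteoglycan list 2 higher and 0 lower of 17 tested and the basement membrane list 2 higher and 0 lower of 17 tested, beside 1.78% higher and 8.08% lower of all genes. Their medians were 1.02, 1.39, 1.09 and 0.95, beside -0.23 for all genes tested.

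Tenascin C, an anti-adhesive glycoprotein induced at wound borders, gave the steadiest of these rises. TNC measured 41.8, 64.1 and 37.8 TPM in the citrine-positive libraries and 2.53 to 4.3 TPM with a median of 3.69 in the double-negative libraries (log2 fold change 3.40 ± 0.41, adjusted p = 1.42e-05), so its lowest citrine-positive library was far above its highest double-negative one. thbs2b, a thrombospondin, measured 25.4, 46.2 and 57 TPM against 0.38 to 5.84 TPM with a median of 1.91 (log2 fold change 3.89 ± 0.60, adjusted p = 2.21e-04), again with no overlap. THBS4 (ENSDARG00000102777), another thrombospondin, was at 20.2, 149.6 and 14.4 TPM against 0.3 to 2.68 TPM with a median of 1.21 (log2 fold change 4.05 ± 0.59, adjusted p = 1.15e-04), with pool 9 far above pools 7 and 10 and all 3 above every double-negative library.

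abi3bpb, a matrix protein of the ABI3BP family, showed the same high pool 9 value, at 61.5, 309.8 and 50.0 TPM against 6.57 to 15.6 TPM with a median of 8.02 (log2 fold change 3.36 ± 0.70, adjusted p = 0.00329). SPON2, a spondin, was low but separate, at 4.74, 5.51 and 2.27 TPM against 0 to 0.28 TPM with a median of 0.045 (log2 fold change 2.17 ± 0.34, adjusted p = 2.37e-04). Fibronectin, the adhesive glycoprotein of provisional matrix, was the most abundant transcript of the list: FN1 (ENSDARG00000006526) measured 3497, 3239 and 4630.0 TPM against 1087 to 3433 TPM with a median of 1492 and did not pass (log2 fold change 1.18 ± 0.57, adjusted p = 0.242).

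1 matricellular gene fell, and by a wide margin. SPOCK3, a testican proteoglycan, measured 5.01, 2.13 and 0.52 TPM against 109 to 377 TPM with a median of 214 (log2 fold change -6.08 ± 0.45, adjusted p = 9.79e-08). The citrine-positive libraries were all below the lowest double-negative library.

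Among elastic fibre genes elnb, an elastin, reached 207, 710.3 and 471 TPM against 10.6 to 91.4 TPM with a median of 32.5 (log2 fold change 3.55 ± 1.02, adjusted p = 0.0312), a large but variable difference without overlap. mfap2, a microfibril protein, measured 99.5, 155 and 251 TPM against 30.01 to 93.3 TPM with a median of 47.7 (log2 fold change 1.56 ± 0.46, adjusted p = 0.036), and fbln5, a fibulin needed for elastic fibre assembly in mammals, 7, 21.7 and 5.8 TPM against 0.5 to 3.13 TPM with a median of 1.46 (log2 fold change 2.09 ± 0.51, adjusted p = 0.0115). FBLN2 rose too (1.56 ± 0.44). All 4 of these calls stayed without the citrine-positive library of pool 7, none without that of pool 9 and 1 without that of pool 10. elnb stayed called in 4 of the 9 fits without 1 library. The 7 elastic fibre genes that did not pass included emilin1b (1.62 ± 0.57, adjusted p = 0.0852) and mfap5 (0.89 ± 0.62, adjusted p = 0.455).

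LUM, the small leucine-rich proteoglycan lumican that coats collagen fibrils, was at 45.6, 57 and 77.5 TPM against 3.78 to 18.4 TPM with a median of 13.4 (log2 fold change 2.31 ± 0.47, adjusted p = 0.00295), with no overlap. DCN, decorin, was the most abundant proteoglycan transcript, at 319, 517 and 804 TPM against 114 to 459.6 TPM with a median of 278, and did not pass (log2 fold change 1.01 ± 0.51, adjusted p = 0.262). acana, an aggrecan, rose (1.76 ± 0.54). In the basement membrane list only 2 laminin chains passed. lamc3 was nearly absent from double-negative cells, at 8.2, 61 and 3.6 TPM against 0 to 0.34 TPM with a median of 0.07 (log2 fold change 3.63 ± 0.56, adjusted p = 1.97e-04), and lama4 measured 54.8, 64.9 and 102 TPM against 21.3 to 44 TPM with a median of 31 (log2 fold change 1.21 ± 0.33, adjusted p = 0.0226). COL4A1, the main basement membrane collagen, overlapped, at 103, 217 and 453 TPM against 103 to 219 TPM with a median of 138 (log2 fold change 0.58 ± 0.38, adjusted p = 0.426). Of these 16 called genes, 14 still passed without the citrine-positive library of pool 7, 8 without that of pool 9 and 10 without that of pool 10. Without 1 double-negative library 11 to 15 passed, the fewest without that of pool 8, and 11 passed with the pool as a block, where the others had adjusted p-values of 0.0585 to 0.115. A few folds here rested on 1 library. Without the citrine-positive library of pool 9, the log2 fold change was 3.03 for THBS4 (ENSDARG00000102777), 2.54 for abi3bpb and 2.55 for lamc3. Once the citrine-positive library of pool 10 was dropped, the log2 fold change was 4.67 for THBS4 (ENSDARG00000102777) and 4.42 for lamc3.

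Enzymes that build and cut matrix were split. Of the collagen synthesis and crosslinking enzymes 4 of 35 rose and none fell (median 0.81), and of the matrix proteases and their inhibitors 12 of 38 rose and 3 fell (median 0.79), beside 1.78% and 8.08% of all genes.

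The builders that rose were LOXL3 (ENSDARG00000039563), a lysyl oxidase-like enzyme that crosslinks collagen and elastin, PCOLCE2 (ENSDARG00000055575), an enhancer of procollagen cleavage, BMP1 (ENSDARG00000028071), the procollagen C-proteinase, and TGM2 (ENSDARG00000074094), a transglutaminase. Of these 4 calls, 2 stayed without the citrine-positive library of pool 7, and none stayed without that of pool 9 or that of pool 10. PCOLCE2 measured 141, 168 and 170.1 TPM against 30.1 to 113 TPM with a median of 57.5 (log2 fold change 1.47 ± 0.42, adjusted p = 0.0283), and TGM2 159, 219 and 361 TPM against 35.7 to 96.6 TPM with a median of 67.7 (log2 fold change 1.90 ± 0.59, adjusted p = 0.0468). Neither overlapped. LOXL3 measured 52.3, 98.4 and 95.6 TPM against 25.6 to 45.4 TPM with a median of 31.1 (log2 fold change 1.25 ± 0.32, adjusted p = 0.0144), also without overlap, while for BMP1 (1.297 ± 0.39, adjusted p = 0.0424) pool 7 lay within the double-negative range. PLOD2, a collagen lysyl hydroxylase and the most abundant transcript of that list, did not pass, at 216, 278 and 414 TPM against 87.9 to 305 TPM with a median of 159 (log2 fold change 0.88 ± 0.41, adjusted p = 0.209).

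A pair of related collagenase genes moved in opposite directions. mmp13a was nearly absent from citrine-positive cells outside pool 7, at 9.68, 0 and 0.06 TPM against 28.1 to 364 TPM with a median of 73.6 (log2 fold change -5.29 ± 0.83, adjusted p = 2.38e-04), whereas mmp13b measured 52.6, 26.1 and 16.8 TPM against 1.47 to 5.23 TPM with a median of 3.8 (log2 fold change 2.76 ± 0.51, adjusted p = 0.00118). Neither gene overlapped between the sorts. The membrane-type metalloproteinase MMP15 (ENSDARG00000013072) was at 25.4, 28.5 and 35.4 TPM against 3.38 to 9.48 TPM with a median of 4.91 (log2 fold change 2.29 ± 0.37, adjusted p = 3.58e-04), and the secreted ADAMTS15 (ENSDARG00000033544) at 16.1, 10.6 and 14.2 TPM against 1.16 to 4.12 TPM with a median of 1.68 (log2 fold change 2.30 ± 0.40, adjusted p = 6.97e-04). mmp25b, a membrane-type metalloproteinase whose mammalian counterpart is made by leukocytes, fell, at 0, 0.22 and 0.4 TPM against 6.09 to 21.9 TPM with a median of 10.3 (log2 fold change -3.34 ± 0.55, adjusted p = 4.08e-04). The inhibitor TIMP4 (ENSDARG00000102617) was listed at 0 in all 3 citrine-positive libraries and at 1.79 to 5.82 TPM with a median of 2.54 in double-negative cells (adjusted p = 0.00102). Of these 19 called genes, 16 still passed without the citrine-positive library of pool 7, 9 without that of pool 9 and 10 without that of pool 10. Leaving out 1 double-negative library, 14 to 18 passed, the fewest without that of pool 8, and 14 passed with the pool as a block, where the others had adjusted p-values of 0.0536 to 0.188. Single libraries moved some of these values by over 1.5 times. In a fit that lacked the citrine-positive library of pool 7, the log2 fold change was -6.41 for mmp13a.

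**Figure D2:**
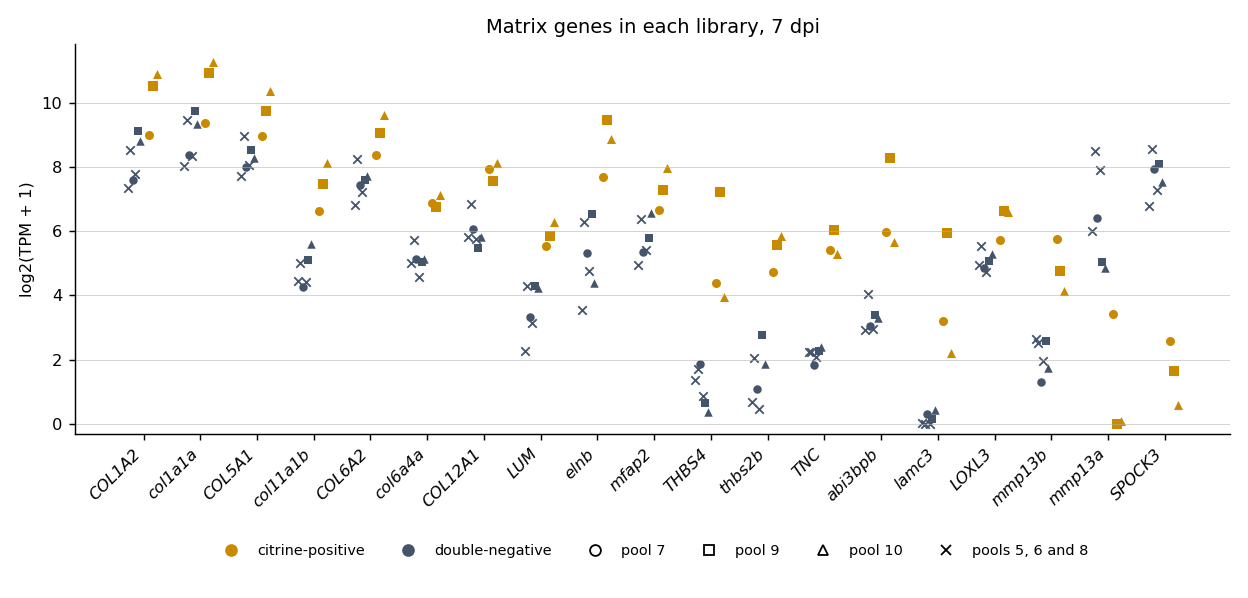
Level of 19 matrix genes in each library as log2(TPM + 1), with citrine-positive libraries in orange and double-negative libraries in blue and the pool given by the symbol. TNC, at 37.8 to 64.1 TPM, lies above all 6 double-negative libraries, and mmp13b lies above while mmp13a lies below them. COL12A1 is ENSDARG00000019601, THBS4 ENSDARG00000102777 and LOXL3 ENSDARG00000039563.

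The largest rises of all genes, taken by log2 fold change among called and non-overlapping genes with a mean of at least 20 TPM, were mostly secreted proteins. RSPO1, a secreted amplifier of Wnt signalling, came first, at 14.5, 128 and 7.08 TPM against 0 to 0.57 TPM with a median of 0 (log2 fold change 4.53 ± 0.59, adjusted p = 3.22e-05). angptl7, a secreted angiopoietin-like protein, followed, at 48.4, 115 and 35.17 TPM against 0.18 to 5.18 TPM with a median of 3.04 (log2 fold change 4.11 ± 0.60, adjusted p = 1.07e-04). No overlap was a condition for this ranking, so the separation of its genes is no finding. RSPO1 was far higher in pool 9 than in pools 7 and 10.

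itih3a.2, an inter-alpha-trypsin inhibitor heavy chain, a family that binds hyaluronan, was listed at 0 in all 6 double-negative libraries and at 10.9, 99.4 and 2.5 TPM in citrine-positive cells (adjusted p = 2.93e-04). Among the 7 dpi libraries, itih3a.2, RSPO1, lamc3 and GYG1 (ENSDARG00000059391) reached 1 TPM only in the 3 citrine-positive ones. There they met the filter through the group where they are high, so their separation and adjusted p are not independent of it. VIT, the matrix protein vitrin, measured 30.9, 247 and 14.8 TPM against 1.96 to 7.26 TPM with a median of 4.07 (log2 fold change 3.33 ± 0.62, adjusted p = 0.0013). GYG1 (ENSDARG00000059391), a glycogenin, the primer of glycogen synthesis, measured 14.4, 55.8 and 2.97 TPM against 0 to 0.61 TPM with a median of 0.155 (log2 fold change 3.64 ± 0.68, adjusted p = 0.00124). Pool 9 was the highest citrine-positive library for all 3 of these genes.

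Keratins of the epithelial type were prominent. krt4 measured 402, 1425 and 264 TPM against 47.7 to 91.8 TPM with a median of 55.8 (log2 fold change 3.14 ± 0.48, adjusted p = 1.72e-04) and krt91 92.8, 936 and 136 TPM against 9.51 to 32.3 TPM with a median of 26.8 (log2 fold change 3.33 ± 0.65, adjusted p = 0.00201), both highest in pool 9. crb2b, a Crumbs protein of apical cell polarity, was even across the replicates, at 24.9, 18.6 and 36 TPM against 1.08 to 2.49 TPM with a median of 1.69 (log2 fold change 3.28 ± 0.40, adjusted p = 1.60e-05). ZNF385A, a zinc finger protein, measured 12.6, 20.1 and 48.6 TPM against 0 to 6.43 TPM with a median of 2.57 (log2 fold change 3.098 ± 0.72, adjusted p = 0.00815) and was highest in pool 10. The other 6 of the 15 largest rises, THBS4 (ENSDARG00000102777), thbs2b, lamc3, elnb, TNC and abi3bpb, are the matrix genes above. Values here that 1 library moved by over 1.5 times are given without it. Where the citrine-positive library of pool 7 was dropped, the log2 fold change was 3.98 for krt91. The log2 fold change was 3.35 for RSPO1, 2.17 for VIT, 2.69 for GYG1 (ENSDARG00000059391), 2.44 for krt4 and 2.32 for krt91 without the citrine-positive library of pool 9. With the citrine-positive library of pool 10 left out, the log2 fold change was 5.35 for RSPO1, 4.16 for VIT and 4.61 for GYG1 (ENSDARG00000059391).

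Stromal identity genes rose in part, and the general markers of fibroblasts and epicardium were divided. Of the fibroblast identity genes 9 of 25 rose and none fell (median 0.99), but 4 of these 9 are collagens or lumican, already counted above. Of the epicardial genes 6 of 19 rose and 1 fell (median 0.71). Of the contractile and myofibroblast genes 2 of 24 rose and 1 fell (median 0.62), and none of 11 mural cell genes passed limma's test, with 2 at an unadjusted p under 0.05 (median 0.71). Of all genes 1.78% rose and 8.08% fell, so 1 fall in a list this long is no more than the background.

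Beyond collagens and PDGFRA, the fibroblast risers were PRRX1 (ENSDARG00000042027), a homeobox factor of limb and connective tissue mesenchyme, twist1a, a factor of mesenchymal cells, scara5, a scavenger receptor, and PDGFRL. twist1a measured 57.6, 27 and 31.9 TPM against 4.95 to 15 TPM with a median of 9.16 (log2 fold change 1.90 ± 0.48, adjusted p = 0.0133). PRRX1 measured 6.4, 2.72 and 11.2 TPM against 0 to 1.64 TPM with a median of 0.685 (log2 fold change 2.09 ± 0.43, adjusted p = 0.00299). scara5 measured 13.9, 24.2 and 30.7 TPM against 3.32 to 10.6 TPM with a median of 5.57 (log2 fold change 1.76 ± 0.44, adjusted p = 0.0132). None of the 3 genes overlapped. A second and more abundant ID of that name, PRRX1 (ENSDARG00000033971), did overlap. Its values were 27.8, 22.4 and 17.4 TPM against 5.42 to 27.4 TPM with a median of 10.5, and it did not pass (log2 fold change 0.99 ± 0.57, adjusted p = 0.335). DPT, dermatopontin, did not pass (log2 fold change 0.74 ± 0.45, adjusted p = 0.378).

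Epicardial genes were led by krt4, described above. BNC2, basonuclin, a zinc finger protein, measured 24.3, 42.3 and 60.7 TPM against 3.55 to 14.6 TPM with a median of 9.96 (log2 fold change 2.05 ± 0.46, adjusted p = 0.00622). CXCL12, the chemokine that guides CXCR4-bearing cells, measured 68.3, 50.0 and 57.8 TPM against 13.3 to 29.1 TPM with a median of 18.1 (log2 fold change 1.56 ± 0.37, adjusted p = 0.00912), and SEMA3E, a secreted semaphorin, 13.1, 4.18 and 11.2 TPM against 0.28 to 1.67 TPM with a median of 1.06 (log2 fold change 2.32 ± 0.41, adjusted p = 7.39e-04). All 3 were above every double-negative library. SEMA3D (1.95 ± 0.51) and WT1 (1.56 ± 0.45) also rose, WT1 being a transcription factor of activated epicardium. The called WT1 was low, at 6.81, 6.23 and 9.84 TPM against 0.52 to 5.91 TPM with a median of 1.75. Its more abundant paralogue wt1b measured 89.5, 23.3 and 52.0 TPM against 15.7 to 48.9 TPM with a median of 23.4. For wt1b the sorts overlapped and the test was not passed (log2 fold change 0.93 ± 0.48, adjusted p = 0.276). ADM (ENSDARG00000069027), the vasoactive peptide adrenomedullin, fell, at 0.22, 1.47 and 0 TPM against 2.59 to 36.2 TPM with a median of 10.7 (log2 fold change -3.15 ± 0.72, adjusted p = 0.00666).

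Other epicardial genes did not separate the sorts. krt8, the most abundant of them, measured 1186, 918 and 1055 TPM against 837 to 1708 TPM with a median of 977 (log2 fold change 0.00 ± 0.40, adjusted p = 0.997). ALDH1A2, the retinoic acid synthesis enzyme of activated epicardium, measured 59, 38.5 and 61.1 TPM against 29.7 to 103 TPM with a median of 48.4 (log2 fold change -0.01 ± 0.42, adjusted p = 0.992). Both ranges overlapped. TBX18 measured 11.2, 76.5 and 114 TPM against 6.63 to 48.5 TPM with a median of 10.4. It overlapped in pool 7 and did not pass (log2 fold change 1.58 ± 0.66, adjusted p = 0.161).

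Contractile genes passed in either direction, and 23 of the 24 tested lay above the median of all genes. So did 25 of 25 fibroblast identity, 14 of 19 epicardial, 7 of 11 mural cell and 23 of 28 cardiomyocyte genes, so this was not particular to contractile genes. In the pairs of pools 7, 9 and 10, 14, 18 and 21 of the 24 contractile genes were higher. cald1b, a caldesmon that binds actin, measured 8.56, 24 and 36.7 TPM against 0.79 to 5.77 TPM with a median of 2.13 (log2 fold change 2.68 ± 0.61, adjusted p = 0.00682) and ITGA11 (ENSDARG00000007950), a collagen-binding integrin of fibroblasts, 26.9, 8.8 and 0.83 TPM against 0.13 to 1.27 TPM with a median of 1.02 (log2 fold change 2.19 ± 0.60, adjusted p = 0.0231), with pool 10 inside the double-negative range. MYH11, smooth muscle myosin, fell, at 20.8, 23.9 and 10.7 TPM against 26.7 to 93.2 TPM with a median of 45.3 (log2 fold change -1.34 ± 0.42, adjusted p = 0.0491). tpm4a, a tropomyosin and the most abundant of that list, did not pass (log2 fold change 0.48 ± 0.43, adjusted p = 0.588). The most abundant mural gene, ndufa4l2b, measured 149, 151 and 208 TPM against 210.2 to 767 TPM with a median of 286, below every double-negative library without passing the test (log2 fold change -0.98 ± 0.51, adjusted p = 0.277). Of these 19 called genes, 12 still passed without the citrine-positive library of pool 7, 9 without that of pool 9 and 8 without that of pool 10. Without 1 double-negative library 14 to 18 passed, the fewest without that of pool 7 or 8, and 10 passed with the pool as a block, where the others had adjusted p-values of 0.0555 to 0.108. A few folds here rested on 1 library. For the fit without the citrine-positive library of pool 7, the log2 fold change was 1.28 for ITGA11 (ENSDARG00000007950). Fitted without the citrine-positive library of pool 10, the log2 fold change was 3.25 for ITGA11 (ENSDARG00000007950).

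**Figure D3:**
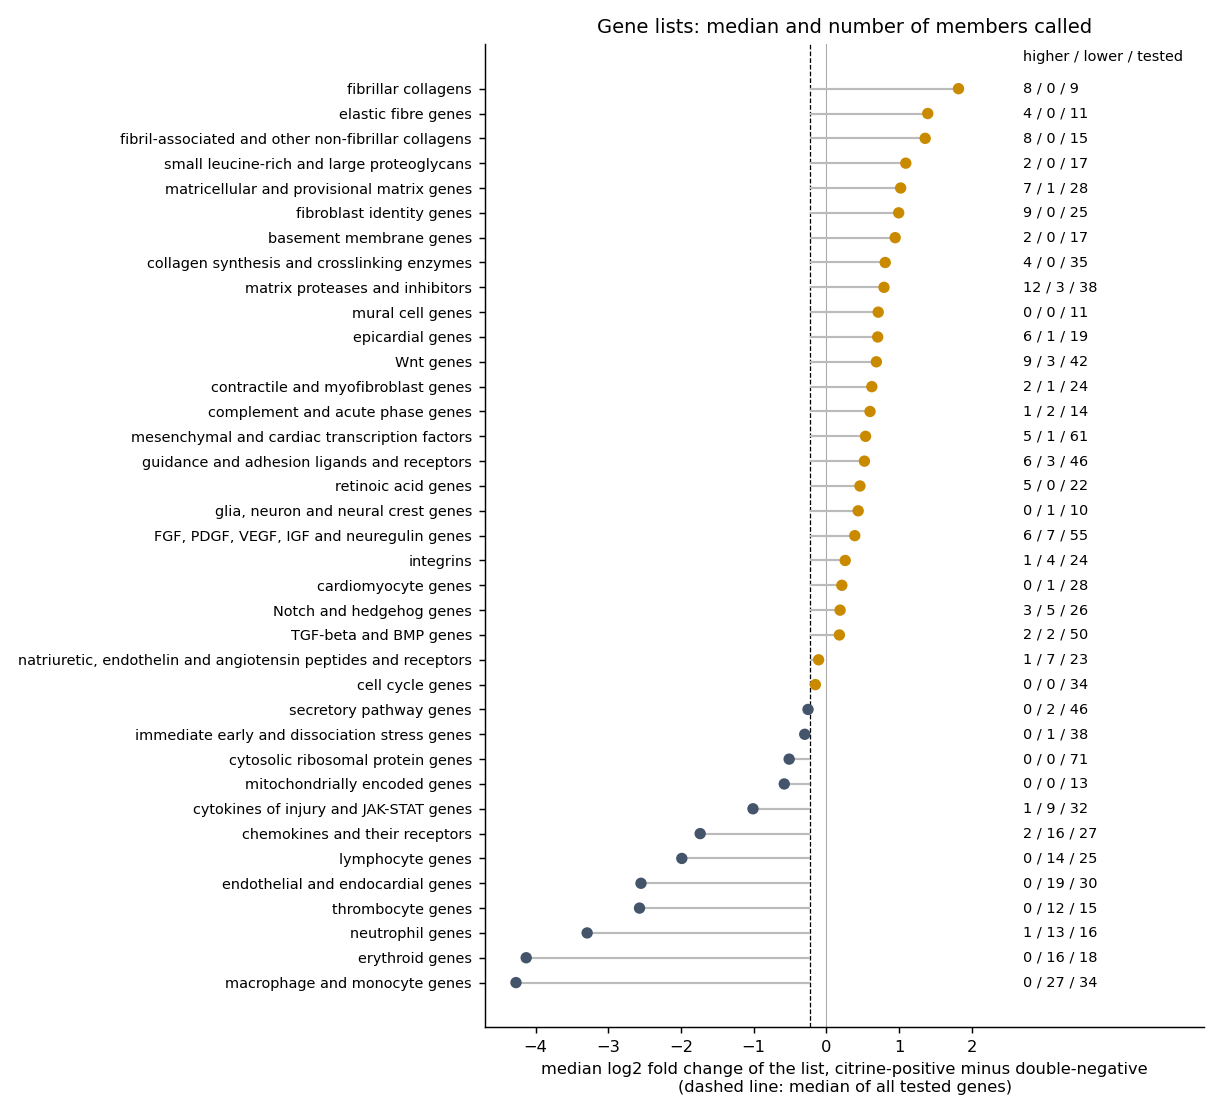
Median log2 fold change of each of the 37 gene lists, with the numbers of members tested and called printed beside each point and a dashed line at -0.23, the median of all 19039 genes tested. Collagens, elastic fibre and proteoglycan genes have the highest medians, and macrophage and erythroid genes the lowest.

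Many genes of endothelium, blood and immune cells were lower in citrine-positive cells. Of 34 macrophage and monocyte genes 27 fell and none rose (median -4.27), of 18 erythroid genes 16 fell (-4.13), of 16 neutrophil genes 13 fell and 1 rose (-3.29), of 15 thrombocyte genes 12 fell (-2.57), of 25 lymphocyte genes 14 fell (-1.99) and of 30 endothelial and endocardial genes 19 fell (-2.55), against 8.08% of all genes. The glia and neural crest list had 1 of 10 lower and the cardiomyocyte list 1 of 28 lower. Of these 103 called genes, 93 still passed without the citrine-positive library of pool 7, 91 without that of pool 9 and 91 without that of pool 10. Leaving out 1 double-negative library, 99 to 102 passed, the fewest without that of pool 7, and 96 passed with the pool as a block, where the others had adjusted p-values of 0.052 to 0.142.

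Summed over each list, macrophage genes held 361 to 426 TPM in citrine-positive libraries and 4694 to 8783 TPM in double-negative ones. Endothelial genes summed to 87.2 to 112 TPM against 581 to 1442 TPM, lymphocyte genes to 20.5 to 52.8 TPM against 452 to 776 TPM, and erythroid genes to 18.4 to 70.17 TPM against 2278 to 29252 TPM. None of these 4 sums overlapped between the sorts. The erythroid median was -2.49 over the 8 genes tested within pools 9 and 10 and -4.35 over the 18 tested within pools 5 to 8. These medians cover different genes, since a gene found only in double-negative cells could not pass the filter within pools 9 and 10. For all 18 genes the medians of the same-pool differences were -5.75, -3.05 and -3.12 in pools 7, 9 and 10. The macrophage median was -4.30 within pools 9 and 10 and -4.51 within pools 5 to 8. That of endothelium was -2.99 within pools 9 and 10 and -2.25 within pools 5 to 8.

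Macrophage genes included marco, a scavenger receptor, at 0.21, 2.64 and 4.61 TPM against 142 to 289 TPM with a median of 214 (log2 fold change -6.12 ± 0.54, adjusted p = 5.62e-07), and ctss2.2, a cathepsin S, at 1.62, 3.15 and 2.78 TPM against 191 to 323 TPM with a median of 290.0 (log2 fold change -6.25 ± 0.55, adjusted p = 5.62e-07). NPC2 (ENSDARG00000096979), an NPC2-type lipid-binding protein, was listed at 0 in all citrine-positive libraries and at 54 to 114 TPM with a median of 84.9 in double-negative ones (adjusted p = 6.73e-09). cd74a, the MHC class II invariant chain, measured 7.48, 14.9 and 21.3 TPM against 1194 to 3137 TPM with a median of 1661 (log2 fold change -6.91 ± 0.63, adjusted p = 6.98e-07), and was detected in each citrine-positive library. SLC7A7 (-6.38 ± 0.57) and c1qa (-6.10 ± 0.57) fell likewise.

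Neutrophil list genes shared with other phagocytes fell, among them the NADPH oxidase subunits cybb (-3.002 ± 0.36), NCF1 (-6.22 ± 0.78) and cyba (-3.46 ± 0.49) and the cytokine receptor CSF3R (-4.04 ± 0.51). cybb measured 2.96, 7.54 and 5.63 TPM against 43.6 to 59.6 TPM with a median of 46.2, and srgn, serglycin of secretory granules, 41.6, 41.2 and 50.4 TPM against 190.5 to 341 TPM with a median of 212 (log2 fold change -2.34 ± 0.30, adjusted p = 2.83e-05). The riser in this list was s100a10a, an S100 protein that binds annexin A2 and is not restricted to neutrophils, at 37.8, 51.2 and 50.9 TPM against 4.9 to 30.1 TPM with a median of 11.7 (log2 fold change 1.93 ± 0.48, adjusted p = 0.0125).

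Lymphocyte list genes fell together with ptprc. nkl.2 and nkl.4, NK-lysin genes of cytotoxic cells, were listed at 0 in all 3 citrine-positive libraries, and at 16.8 to 180.3 TPM with a median of 56.7 and 5.58 to 21 TPM with a median of 11.8 in double-negative cells. CXCR4 (ENSDARG00000041959), the chemokine receptor of leukocytes, measured 0, 0.15 and 0 TPM against 50.8 to 136 TPM with a median of 67.6 (log2 fold change -6.17 ± 0.65, adjusted p = 3.61e-06), and tnfrsf9b, a TNF receptor family member, 14.1, 1.59 and 1.51 TPM against 66.3 to 187 TPM with a median of 100.5 (log2 fold change -4.53 ± 0.81, adjusted p = 8.72e-04). IKZF1, the lymphoid transcription factor Ikaros, fell as well (-2.92 ± 0.50).

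Endothelial genes other than cdh5 and kdrl included AQP8, an aquaporin, at 0.67, 5.15 and 1.25 TPM against 112 to 272 TPM with a median of 188 (log2 fold change -5.97 ± 0.38, adjusted p = 1.41e-08), and vwf, von Willebrand factor, at 1.09, 0.33 and 0.34 TPM against 56.4 to 251 TPM with a median of 131 (log2 fold change -6.40 ± 0.43, adjusted p = 2.69e-08). The receptor TIE1 (-4.16 ± 0.35) and the Notch ligand dll4 (-4.51 ± 0.48) fell too. None of these genes overlapped between the sorts.

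Thrombocyte genes were the coagulation and platelet genes F13A1 (ENSDARG00000045453) (-4.73 ± 0.61), tubb1 (-4.32 ± 0.55), f5 (-3.11 ± 0.41), PLEK (-4.40 ± 0.61) and F13A1 (ENSDARG00000094832) (-3.78 ± 0.53) and itga2b, the platelet integrin, which was listed at 0 in citrine-positive cells and at 8.94 to 28.8 TPM with a median of 18.1 in double-negative ones. In the glia list only EGR2 passed, listed at 0 in citrine-positive cells and at 0.75 to 4.35 TPM with a median of 2.43 in double-negative ones, while PRPH, peripherin of neurons, was near equal (log2 fold change -0.13 ± 0.41, adjusted p = 0.909).

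Cardiomyocyte transcripts divided the citrine-positive libraries among themselves. The list summed to 10539 TPM in pool 7, 929 TPM in pool 9 and 996 TPM in pool 10, against 2062 to 4522 TPM in double-negative libraries. MYL7, a myosin light chain of zebrafish cardiomyocytes, measured 1831, 120.2 and 146 TPM against 189.9 to 508 TPM with a median of 326 (log2 fold change 0.02 ± 0.65, adjusted p = 0.991), so pool 7 lay above all double-negative libraries and pools 9 and 10 below. mb, myoglobin, was the 1 gene called (1004, 158 and 188 TPM against 745 to 1458 TPM with a median of 1040.5; log2 fold change -1.77 ± 0.50, adjusted p = 0.0283), and after median-of-ratios scaling it was not (adjusted p = 0.0509). The list median was -0.46 within pools 9 and 10 and 2.26 within pools 5 to 8. The part of cardiomyocyte RNA in the other results of pool 7 was not tested. Single libraries moved some of these values by over 1.5 times. Without the citrine-positive library of pool 7, the log2 fold change was -5.48 for marco, -5.39 for tnfrsf9b and -2.62 for mb.

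**Figure D4:**
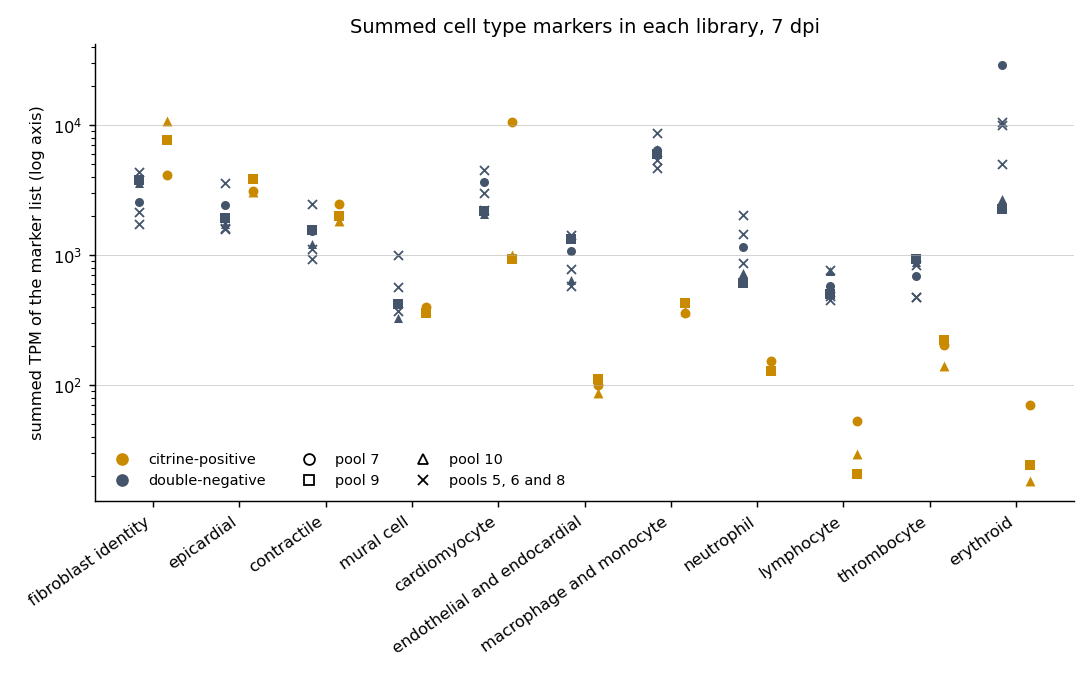
Summed TPM of each cell type marker list in each library on a log axis, with citrine-positive libraries in orange, double-negative libraries in blue and pools by symbol. Endothelial, macrophage, neutrophil, lymphocyte, thrombocyte and erythroid sums are lower in all 3 citrine-positive libraries, and the cardiomyocyte sum is 10539 TPM in pool 7 against 929 and 996 TPM in pools 9 and 10.

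The largest falls of all genes were globins and genes of red cells and leukocytes. HBE1 (ENSDARG00000089087) measured 89.3, 1.4 and 2.94 TPM against 3139 to 74728 TPM with a median of 13517 (log2 fold change -10.44 ± 1.26, adjusted p = 1.47e-05), and hbaa1, an adult alpha globin, 22.9, 1.64 and 0.98 TPM against 1678 to 20602 TPM with a median of 5287 (log2 fold change -9.90 ± 0.96, adjusted p = 1.42e-06). No overlap was a condition for this ranking too. For both genes the 6 double-negative libraries themselves spanned more than 10-fold. The other globins were HBE1 (ENSDARG00000097238) (-9.94 ± 1.12), HBE1 (ENSDARG00000069734) (-8.47 ± 0.82) and hbaa2 (-8.57 ± 0.96). Globin copies are nearly identical in sequence, so the split of reads between them is uncertain.

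Red cell enzymes fell with them: alas2, the erythroid heme synthesis enzyme, at 1.1, 0.05 and 0.16 TPM against 56 to 831 TPM with a median of 210.2 (log2 fold change -7.04 ± 0.76, adjusted p = 4.26e-06), cahz, a carbonic anhydrase (-6.80 ± 0.76), and nt5c2l1, a nucleotidase-like gene (-7.15 ± 0.93). SLC4A1 (ENSDARG00000012881) (-6.62 ± 0.57) and epb41b (-6.22 ± 0.61), the anion exchanger and a band 4.1 protein of the red cell membrane, were next. All were near 0 in each citrine-positive library.

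Leukocyte genes made up most of the rest. fcer1gl, an Fc receptor gamma-like chain, measured 0.53, 0.2 and 0 TPM against 184 to 319 TPM with a median of 274 (log2 fold change -7.71 ± 0.57, adjusted p = 9.79e-08), and CCR9, a chemokine receptor, 0.72, 1.46 and 0.45 TPM against 167 to 287 TPM with a median of 227 (log2 fold change -6.92 ± 0.63, adjusted p = 7.53e-07). c1qb, a complement C1q chain made by macrophages, fell as c1qa did (-6.78 ± 0.74). gja13.2 (-7.52 ± 0.57) and olmf4l1 (-6.89 ± 0.61), a connexin and an olfactomedin-like gene, complete the 15 largest falls with ptprc and cd74a. Values here that 1 library moved by over 1.5 times are given without it. Once the citrine-positive library of pool 7 was dropped, the log2 fold change was -12.07 for HBE1 (ENSDARG00000089087), -11.03 for hbaa1 and -10.96 for HBE1 (ENSDARG00000097238). In a fit that lacked the citrine-positive library of pool 9, the log2 fold change was -9.45 for HBE1 (ENSDARG00000089087). Where the citrine-positive library of pool 10 was dropped, the log2 fold change was -9.81 for HBE1 (ENSDARG00000089087), -9.23 for hbaa1 and -9.11 for HBE1 (ENSDARG00000097238).

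Chemokine and cytokine genes that passed were mostly lower, and few complement genes were called. Of 27 chemokines and receptors 16 fell and 2 rose (median -1.74), of 32 cytokine and JAK-STAT genes 9 fell and 1 rose (median -1.01), and of 14 complement and acute phase genes 2 fell and 1 rose (median 0.60), beside 8.08% lower and 1.78% higher of all genes. The complement count is too small to set against that share.

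The chemokines that rose were CXCL12, given above, and ccl25b, at 21.8, 59.8 and 74.8 TPM against 1.44 to 21.1 TPM with a median of 8.49 (log2 fold change 2.49 ± 0.62, adjusted p = 0.0129). CCR9, whose mammalian counterpart is the receptor for CCL25, was in the double-negative cells, at the values given above, and so was CXCR4, the receptor for CXCL12. Both ligands were thus higher in one sort and both receptors in the other. Chemokines that fell include ccl35.1, at 0.44, 0 and 0.27 TPM against 79.4 to 153 TPM with a median of 122 (log2 fold change -6.58 ± 0.52, adjusted p = 1.60e-07), cxcl20 (-3.40 ± 0.39) and cxcr3.2 (-4.73 ± 0.61), and ccr12b.1, listed at 0 in citrine-positive cells and at 3.51 to 15.4 TPM with a median of 9.35 in double-negative cells.

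Of the cytokines, il1b, interleukin 1 beta, measured 0.18, 1.06 and 0 TPM against 26.1 to 296 TPM with a median of 177 (log2 fold change -6.34 ± 0.67, adjusted p = 3.76e-06). Its double-negative values were 30.4 and 26.1 TPM in pools 9 and 10 and 157 to 296 TPM in pools 5 to 8. The il1b log2 fold change was -4.34 within pools 9 and 10 and -7.48 within pools 5 to 8. tnfb, a tumour necrosis factor, measured 4.67, 4.62 and 1.96 TPM against 113 to 252 TPM with a median of 127 (log2 fold change -5.00 ± 0.52, adjusted p = 3.096e-06). il6r (-4.95 ± 0.54), m17 (-2.33 ± 0.43) and il11b (-1.98 ± 0.45), the receptor and ligands of the interleukin 6 family, fell too. The riser was csf1a, a ligand of the macrophage growth factor receptor, at 9.15, 1.15 and 6.7 TPM against 0 to 1.19 TPM with a median of 0.405 (log2 fold change 1.92 ± 0.43, adjusted p = 0.00571), with pool 9 inside the double-negative range. JAK1, the most abundant of that list, did not pass (log2 fold change -1.31 ± 0.53, adjusted p = 0.144).

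CLU, clusterin, an extracellular chaperone, was the complement-list riser, at 673, 517 and 417 TPM against 129 to 356 TPM with a median of 178 (log2 fold change 1.43 ± 0.36, adjusted p = 0.0131). cfh, the inhibitor factor H, fell (-1.25 ± 0.38), and the other fall, pfn1 (-3.33 ± 0.63), is profilin, an actin-binding protein and no complement factor. c4b (197, 121 and 129.8 TPM against 43.6 to 91.8 TPM with a median of 46.5; log2 fold change 1.46 ± 0.58, adjusted p = 0.131) and c7a (log2 fold change 0.61 ± 0.38, adjusted p = 0.388) did not pass. Of these 31 called genes, 19 still passed without the citrine-positive library of pool 7, 19 without that of pool 9 and 21 without that of pool 10. Without 1 double-negative library 26 to 29 passed, the fewest without that of pool 8, and 25 passed with the pool as a block, where the others had adjusted p-values of 0.0609 to 0.266. The value of csf1a was moved by over 1.5 times by 1 library. Its log2 fold change went from 1.92 to 2.60 without the citrine-positive library of pool 9, so the rise did not rest on that library.

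Several secreted modulators of Wnt signalling rose. Wnts are secreted ligands for Frizzled receptors, R-spondins amplify them, and the SFRP, FRZB and DKK proteins bind ligand or co-receptor and mostly inhibit. Of 42 Wnt genes 9 rose and 3 fell (median 0.69), beside 1.78% and 8.08% of all genes, so the falls were near the background. The risers were 1 amplifier, 6 secreted inhibitors or relatives, 1 ligand and 1 receptor.

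RSPO1, given above, varied widely between pools, and several frizzled-related proteins varied less. SFRP1 (ENSDARG00000035521) measured 72.4, 56.1 and 74.2 TPM against 4.68 to 14.2 TPM with a median of 7.41 (log2 fold change 2.93 ± 0.41, adjusted p = 7.08e-05), SFRP2 5.07, 6.29 and 6.3 TPM against 0 to 0.12 TPM with a median of 0 (log2 fold change 2.74 ± 0.29, adjusted p = 3.096e-06) and frzb 32, 27.9 and 41.1 TPM against 3.85 to 16.9 TPM with a median of 9.04 (log2 fold change 1.78 ± 0.46, adjusted p = 0.0158). None overlapped. dkk2 (1.61 ± 0.39), SFRP1 (ENSDARG00000057678) (1.66 ± 0.47), DKK3 (ENSDARG00000070683) (1.56 ± 0.45) and the receptor ROR1 (1.82 ± 0.49) rose as well.

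The ligands went both ways. WNT5B was at 6.05, 46.1 and 11.3 TPM against 0.89 to 3.71 TPM with a median of 1.92 (log2 fold change 2.36 ± 0.65, adjusted p = 0.024), highest in pool 9. WNT2B was listed at 0 in all citrine-positive libraries and at 1.9 to 18.6 TPM with a median of 6.61 in double-negative ones (adjusted p = 0.00434), and wnt4b measured 2.54, 1.23 and 2.27 TPM against 5.46 to 11.4 TPM with a median of 6.74 (log2 fold change -1.49 ± 0.40, adjusted p = 0.0216). The inhibitor SFRP5 fell (log2 fold change -1.65 ± 0.52, adjusted p = 0.0486). With the pool as a block, 4 of the 12 called Wnt genes kept their call. None was called lower there, so the falls of WNT2B, wnt4b and SFRP5 were all lost.

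Retinoic acid genes that rose were binding proteins, the degrading enzyme and a receptor, 5 of 22 with none lower (median 0.46). Of all genes 1.78% rose and 8.08% fell. Retinoic acid is made by ALDH1A enzymes, bound in the cell by CRABP proteins, degraded by CYP26 enzymes and read by RAR receptors. CYP26B1 measured 64.3, 282 and 39.11 TPM against 4.63 to 18.6 TPM with a median of 14.7 (log2 fold change 2.73 ± 0.56, adjusted p = 0.00281), and rbp5, a cellular retinol-binding protein, 87.4, 53 and 49.3 TPM against 6.78 to 23.2 TPM with a median of 12.3 (log2 fold change 2.22 ± 0.53, adjusted p = 0.00949). Both were above every double-negative library, CYP26B1 most of all in pool 9. CRABP2 (ENSDARG00000030449) was at 15.8, 30.6 and 38 TPM against 3.12 to 8.67 TPM with a median of 6.29 (log2 fold change 2.03 ± 0.49, adjusted p = 0.0108) and CRABP1 (ENSDARG00000035904) at 4.25, 2.69 and 3.96 TPM against 0 to 1.44 TPM with a median of 0.92 (log2 fold change 1.39 ± 0.35, adjusted p = 0.0129). RARG (ENSDARG00000054003) passed only narrowly and rested on pool 9, at 0.44, 28.8 and 3.03 TPM against 0 to 1.61 TPM with a median of 0.265 (log2 fold change 2.01 ± 0.63, adjusted p = 0.0491). The synthesis enzyme ALDH1A2 did not pass, as given above, nor did RBP4, the retinol carrier and the most abundant of the list (log2 fold change 1.19 ± 0.58, adjusted p = 0.249). Of these 17 called genes, 15 still passed without the citrine-positive library of pool 7, 8 without that of pool 9 and 7 without that of pool 10. Leaving out 1 double-negative library, 13 to 17 passed, the fewest without that of pool 7 or 8, and 7 passed with the pool as a block, where the others had adjusted p-values of 0.0505 to 0.184. Single libraries moved some of these values by over 1.5 times. With the citrine-positive library of pool 7 left out, the log2 fold change was 2.32 for SFRP1 (ENSDARG00000057678), 2.95 for WNT5B, -2.43 for SFRP5 and 2.99 for RARG (ENSDARG00000054003). For the fit without the citrine-positive library of pool 9, the log2 fold change was 1.58 for WNT5B, 1.91 for CYP26B1 and 0.80 for RARG (ENSDARG00000054003). Fitted without the citrine-positive library of pool 10, the log2 fold change was 1.05 for SFRP1 (ENSDARG00000057678) and 3.32 for CYP26B1.

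Growth factor genes passed in both directions. Of 55 genes of the FGF, PDGF, VEGF, IGF and neuregulin families 6 rose and 7 fell (median 0.39), of 50 TGF-beta and BMP genes 2 rose and 2 fell (0.18), and of 26 Notch and hedgehog genes 3 rose and 5 fell (0.19), beside 1.78% higher and 8.08% lower of all genes. The 2 falls among TGF-beta and BMP genes are below that share.

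MDK (ENSDARG00000036036), the heparin-binding growth factor midkine, was the most abundant growth factor transcript, at 1836, 2744 and 4383 TPM against 557 to 1589 TPM with a median of 1015 (log2 fold change 1.53 ± 0.43, adjusted p = 0.0248), above all double-negative libraries. IGFBP5 (ENSDARG00000025348), an IGF-binding protein, measured 21.5, 45.2 and 18.9 TPM against 3.15 to 8.37 TPM with a median of 4.09 (log2 fold change 2.36 ± 0.44, adjusted p = 0.00142), and ERBB3, a neuregulin receptor, 3.84, 15.7 and 3.72 TPM against 0.08 to 0.64 TPM with a median of 0.315 (log2 fold change 2.45 ± 0.41, adjusted p = 4.69e-04). These were separate from the double-negative libraries too.

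A PDGF ligand was lower in citrine-positive cells and a PDGF receptor, present in both sorts, was higher. pdgfba, a PDGF-B ligand, measured 1.83, 3.79 and 2.72 TPM against 10.9 to 59.5 TPM with a median of 26.8 (log2 fold change -2.78 ± 0.58, adjusted p = 0.0035), and PDGFRA had the values given above. HBEGF, a ligand of the EGF receptor family, fell, at 0, 0.45 and 3.86 TPM against 20.04 to 57.5 TPM with a median of 31.4 (log2 fold change -4.13 ± 0.57, adjusted p = 6.49e-05), and igfbp6b measured 1.35, 4.81 and 2.73 TPM against 15.2 to 65.5 TPM with a median of 45 (log2 fold change -3.48 ± 0.42, adjusted p = 1.32e-05). No library of one sort reached the range of the other for these 3 genes.

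In the TGF-beta family BMP10, a ligand of heart muscle and endocardium, measured 0, 0 and 0.14 TPM against 8.08 to 22.3 TPM with a median of 15.3 (log2 fold change -3.92 ± 0.35, adjusted p = 5.62e-07) and BMP6 10.0, 2.65 and 2.65 TPM against 8.93 to 49 TPM with a median of 21.6 (log2 fold change -2.14 ± 0.60, adjusted p = 0.0257). FST (ENSDARG00000052846), follistatin, an inhibitor of activin and BMP ligands, rose from a low level, at 1.31, 1.8 and 3.5 TPM against 0 to 0.62 TPM with a median of 0.13 (log2 fold change 1.38 ± 0.41, adjusted p = 0.0384), as did BMP1, given above as a protease. FSTL1 (ENSDARG00000039576), the most abundant of the list, did not pass (log2 fold change 0.85 ± 0.46, adjusted p = 0.309).

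Notch receptors and ligand fell with endothelium, whose list also holds dll4 and both NOTCH1 genes. NOTCH1 (ENSDARG00000103554) measured 2.5, 0.89 and 1.14 TPM against 29.4 to 125 TPM with a median of 52.9 (log2 fold change -4.54 ± 0.69, adjusted p = 1.63e-04), NOTCH1 (ENSDARG00000052094) 8.39, 12.6 and 15.2 TPM against 37.8 to 76.8 TPM with a median of 52.1 (log2 fold change -2.09 ± 0.31, adjusted p = 1.25e-04), and mfng, a Notch-modifying glycosyltransferase, fell as well (-3.20 ± 0.62). The hedgehog co-receptors rose: CDON measured 22.1, 66.8 and 50.4 TPM against 5.64 to 23.6 TPM with a median of 8.22 (log2 fold change 2.04 ± 0.51, adjusted p = 0.0139) and BOC 36, 105 and 66 TPM against 11.7 to 29.8 TPM with a median of 24.4 (log2 fold change 1.51 ± 0.38, adjusted p = 0.0146). CDON overlapped in pool 7 and BOC did not. Of these 25 called genes, 21 still passed without the citrine-positive library of pool 7, 13 without that of pool 9 and 14 without that of pool 10. Without 1 double-negative library 19 to 21 passed, the fewest without that of pool 5, 7 or 8, and 17 passed with the pool as a block, where the others had adjusted p-values of 0.0524 to 0.128. Values here that 1 library moved by over 1.5 times are given without it. Without the citrine-positive library of pool 9, the log2 fold change was 1.85 for ERBB3. Once the citrine-positive library of pool 10 was dropped, the log2 fold change was -4.800 for HBEGF.

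**Figure D5:**
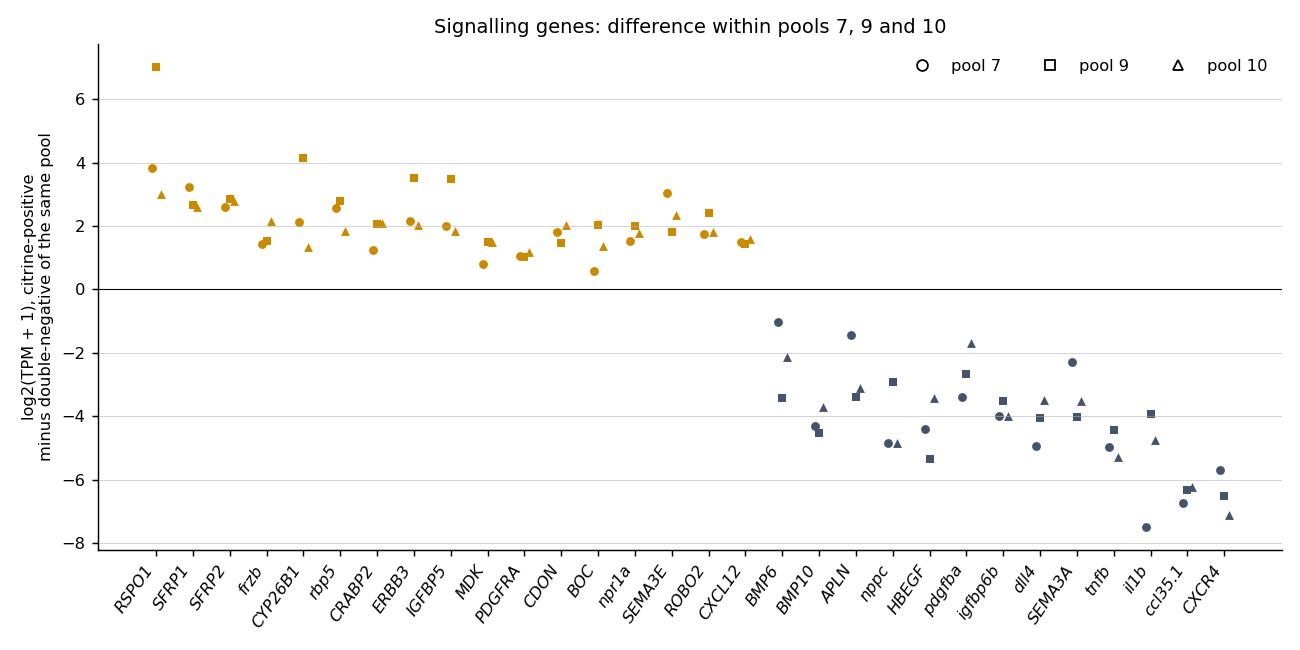
Difference in log2(TPM + 1) between the citrine-positive and double-negative library of the same pool for signalling genes, with pools 7, 9 and 10 by symbol, and orange and blue for higher and lower genes. The genes were picked among called ones, and these pairs are part of the libraries that gave the calls. All 30 shown have the same sign in the 3 pools, as do 330 of the 338 higher and 1511 of the 1538 lower genes. This is no separate support. RSPO1 and CYP26B1 are highest in pool 9. SFRP1 is ENSDARG00000035521, CRABP2 ENSDARG00000030449, IGFBP5 ENSDARG00000025348, MDK ENSDARG00000036036 and CXCR4 ENSDARG00000041959.

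Genes of vasoactive peptide pathways were mostly lower where they were called. Of 23 natriuretic, endothelin and angiotensin pathway genes 7 fell and 1 rose, beside 8.08% lower and 1.78% higher of all genes. The sign of the list's median changed with the scaling, so the median gives no direction. nppc, C-type natriuretic peptide, measured 1.46, 2.8 and 0 TPM against 27.7 to 163 TPM with a median of 52.4 (log2 fold change -4.68 ± 0.73, adjusted p = 2.21e-04). APLN, apelin, measured 13.9, 6.58 and 5.29 TPM against 30.5 to 79.2 TPM with a median of 47.2 (log2 fold change -2.52 ± 0.39, adjusted p = 2.30e-04), and its receptor aplnrb fell too (-2.68 ± 0.43). The riser was npr1a, a natriuretic peptide receptor, at 21.3, 19.9 and 20.5 TPM against 4.17 to 7.53 TPM with a median of 5.64 (log2 fold change 1.67 ± 0.40, adjusted p = 0.00902), even across pools. None of these genes overlapped between the sorts.

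Guidance and adhesion genes had 6 of 46 higher and 3 lower (median 0.52), the falls being near the 8.08% of all genes. CDH2, N-cadherin of mesenchymal and muscle cells, measured 151, 205 and 282 TPM against 37.7 to 96.1 TPM with a median of 65.5 (log2 fold change 1.68 ± 0.35, adjusted p = 0.00344), and ROBO2, a Slit receptor, 3.4, 11.9 and 6.4 TPM against 0.31 to 1.44 TPM with a median of 0.56 (log2 fold change 2.17 ± 0.45, adjusted p = 0.00345). Semaphorins differed by member: SEMA3E and SEMA3D rose, and SEMA3A fell, at 4.71, 0.05 and 0.04 TPM against 10.9 to 35.7 TPM with a median of 19 (log2 fold change -3.50 ± 0.50, adjusted p = 9.64e-05). The endothelial robo4 (-3.90 ± 0.45) and nrp1b (-1.40 ± 0.35) fell.

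Integrins, the receptors for matrix, had 1 of 24 higher, ITGA11, and 4 lower (median 0.26), beside 1.78% and 8.08% of all genes. These counts are too small to set against those shares. Those lower were itga2b and itgae.1 (-2.66 ± 0.49), ITGB3 (ENSDARG00000056767) (-1.505 ± 0.38) and itgb2 (-1.71 ± 0.47), itga2b and ITGB3 being known from platelets and the others from leukocytes. ITGB1 (ENSDARG00000071863), the common beta chain of collagen and fibronectin receptors, measured 68.5, 97.1 and 139.5 TPM against 33 to 77.3 TPM with a median of 49.2 and did not pass (log2 fold change 1.02 ± 0.33, adjusted p = 0.0545). Of these 22 called genes, 17 still passed without the citrine-positive library of pool 7, 15 without that of pool 9 and 18 without that of pool 10. Leaving out 1 double-negative library, 21 to 22 passed, the fewest without that of pool 6, 7, 8 or 9, and 16 passed with the pool as a block, where the others had adjusted p-values of 0.06 to 0.108. The value of SEMA3A was moved by over 1.5 times by 1 library. In a fit that lacked the citrine-positive library of pool 7, its log2 fold change was -4.32, a larger fall.

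Of 61 mesenchymal and cardiac transcription factors 5 rose and 1 fell (median 0.54), beside 1.78% and 8.08% of all genes. PRRX1, twist1a and WT1 are given above. OSR1, an odd-skipped zinc finger factor of mesenchyme, measured 8.91, 6.66 and 8.12 TPM against 0.62 to 6.04 TPM with a median of 1.77 (log2 fold change 1.56 ± 0.45, adjusted p = 0.0302) and meox2b 1.2, 1.61 and 2.12 TPM against 0 to 1.8 TPM with a median of 0 (log2 fold change 1.14 ± 0.35, adjusted p = 0.0434). Of the 9 fits without 1 library, OSR1 stayed called in 3 and meox2b, which overlapped, in 1. Neither was called by limma with the pool as a block (adjusted p = 0.107 and 0.201). FOXC1, a forkhead factor, fell, at 1.54, 4.55 and 2.67 TPM against 8.42 to 33.6 TPM with a median of 15.4 (log2 fold change -2.24 ± 0.40, adjusted p = 9.07e-04). The related foxc1b overlapped, at 12.2, 11.2 and 7.56 TPM against 7.2 to 27.2 TPM with a median of 14.5. It did not pass (log2 fold change -0.41 ± 0.42, adjusted p = 0.651). egr1, the most abundant of the list, overlapped (log2 fold change 1.01 ± 0.55, adjusted p = 0.303), and its log2 fold change was 0.48 without the citrine-positive library of pool 9 and 1.77 without that of pool 7.

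Few genes of cell state were called. None of 34 cell cycle genes, 13 mitochondrially encoded genes or 71 cytosolic ribosomal protein genes passed limma's test (at an unadjusted p under 0.05, 5, 0 and 3 of them), with medians of -0.15, -0.58 and -0.51 beside -0.23 for all genes. The mitochondrial genes were split by pool. Their citrine-positive sums were 17530, 6722 and 8444 TPM against 12868 to 20748 TPM in double-negative libraries. In the pool 7 pair 10 of the 13 were higher (median 0.13). None was higher in the pairs of pools 9 and 10 (medians -1.04 and -0.98). Of 46 secretory pathway genes 2 fell, and of 38 immediate early and dissociation stress genes 1 fell, klf2b, a flow-responsive factor of endothelium, at 10.1, 8.96 and 4.22 TPM against 12 to 57.6 TPM with a median of 24.2 (log2 fold change -1.60 ± 0.50, adjusted p = 0.0496). For klf2b the adjusted p was 0.0523 after median-of-ratios scaling. Both counts are below the 8.08% of all genes that fell. The signs of the medians of the secretory and stress lists changed with the scaling. Of these 9 called genes, 3 still passed without the citrine-positive library of pool 7, 3 without that of pool 9 and 4 without that of pool 10. Without 1 double-negative library 4 to 7 passed, the fewest without that of pool 8, and 3 passed with the pool as a block, where the others had adjusted p-values of 0.085 to 0.201.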

How the data were processed

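The authors deposited one table of TPM (transcript abundance scaled to a fixed total), given per Ensembl gene, for 31388 IDs in 16 libraries. The Zv9 build, RSEM 1.2.25, cutadapt and CASAVA 1.8.2 are named in the submitters' processing notes, without their roles. Per the labels' protocols, libraries were built from 0.2 to 0.6 ng of RNA with NuGEN's Ovation system for single cells and read as single reads of 60 bases, and the same text also names the TruSeq RNA v2 kit. TPM sum to 1000000 in every library, so the depth is unknown, no counting interval can be given, and abundant transcripts lower the values of the others. Amplification of so little RNA can add spread to low genes. The replicates are labelled as separate pools of hearts.

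Samples were grouped by the reporter and treatment in their labels, and no value column of the table was left unused. IDs that reached 1 TPM in 3 or more libraries, 19039 in all, were fitted with limma 3.58.1 (R 4.3.3) on log2(TPM + 1), with a variance trend and 1 mean per group over all 16 libraries. P-values were adjusted by Benjamini-Hochberg over these IDs, with a threshold of 0.05. Tables and plots were made with Python 3.11.15, numpy 2.4.6, pandas 2.3.3 and matplotlib 3.10.9. The fit was tested on simulated data. Of the IDs, 25925 had a gene symbol in the name table used. The 37 gene lists held 1211 symbols, which matched 1170 IDs, partly by ignoring case or a paralogue letter, and 990 of these were tested. The fit's calls were counted over each list and no test was made of a list.

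Named genes were the 15 largest rises and falls among called genes with a symbol, no overlap between the sorts and a mean of 20 TPM or more in whichever sort was higher. From each list up to 6 called members with the lowest adjusted p and the most abundant member were taken, and all members of lists of up to 15. Reporter genes and defining markers were added, and 1 gene that the rule names is not reported here. The members and lists were chosen with earlier results of these data known. Same-numbered pools were read as the same hearts from the pool tag in the labels. The deviations of their 2 sorts from the group means correlated across genes with r of 0.16, 0.23 and 0.19 in pools 7, 9 and 10, all above 0.1. Unmatched pools gave like values within pools 5 to 8 (0.12 to 0.17 for the citrine-positive library of pool 7) and within pools 9 and 10 (0.16 and 0.17), and values from -0.28 to -0.06 across them, so these r follow that split and are not specific to shared hearts. Alternatives changed the scaling, abundant IDs, filter, pseudocount, samples, pool block, minimum fold and libraries. No sequence is printed, since no genome or sequence table was used here.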

Additional observations from a re-analysis of the deposited data

Results flagged for a closer look

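In the 6 double-negative libraries, 253 genes and summed lists were examined for 1 library standing apart by Dixon's criterion, and 31 met it. The criterion's rate of about 1 in 20 holds for independent, normally distributed values. Here untransformed TPM were used, all genes share the same libraries, and some sums contain genes also examined singly. The 31 can therefore not be set against that rate. The citrine-positive group has 3 libraries and was not examined. No cause was tested.

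The library of pool 6 was the high one for 18 of the 31 and for most of the summed lists among them. This library also had the smallest share of TPM in the 15 abundant unnamed IDs (29.2%). Its cd74a, the invariant chain of antigen presentation, stood at 3137 TPM against 1194 to 1857 TPM in the others. Its krt8 stood at 1708 TPM (836.75 to 1111 TPM in the others), srgn at 341 TPM (190.46 to 238 TPM), c4b at 91.8 TPM (43.6 to 51.1 TPM) and cybb at 59.6 TPM (43.6 to 48.1 TPM). The secreted FSTL1 (ENSDARG00000039576) was at 489 TPM there and at 91.2 to 213 TPM elsewhere. The natriuretic peptide nppc was at 163 TPM (27.7 to 72.0 TPM in the others), COL12A1 (ENSDARG00000019601) at 114 TPM (43.6 to 65.9 TPM) and klf2b at 57.6 TPM (12 to 26.4 TPM). PRPH reached 29.6 TPM, abi3bpb 15.6 TPM, IGFBP5 (ENSDARG00000025348) 8.37 TPM, C1QTNF12 1.23 TPM and RSPO1 0.57 TPM, each above the other double-negative libraries. Summed TPM there were 1011 for mural cell genes (331 to 574 in the others), 1274 for chemokines and their receptors (687 to 867), 2205 for TGF-beta and BMP genes (976 to 1315) and 5259 for secretory pathway genes (2052 to 3255).

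Erythroid transcripts were highest in the double-negative library of pool 7. Their sum was 29252 TPM there and 2278 to 10579 TPM in the others. The globins hbaa1 and hbaa2 stood at 20602 and 4228 TPM, alas2 of haem synthesis at 831 TPM and the carbonic anhydrase cahz at 527 TPM. The chemokine gene cxcl20 was also highest in that library, at 13.15 TPM against 9.73 to 10.6 TPM.

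In the library of pool 9, CDON was at 23.6 TPM, MMP15 (ENSDARG00000013072) at 9.48 TPM and dkk2 at 1.32 TPM, each the highest of the 6. In that of pool 10, HTRA1 (ENSDARG00000032831) was at 11.7 TPM against 0.62 to 3.52 TPM, RARG (ENSDARG00000054003) at 1.61 TPM and meox2b at 1.8 TPM, where meox2b was listed at 0 in the other 5. The library of pool 5 was low for CYP26B1, the retinoic acid hydroxylase, at 4.63 TPM against 13.8 to 18.6 TPM.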

How the results depend on the processing

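The count of higher genes moved most, from 338. It was 883 with median-of-ratios scaling, 697 without the 15 abundant unnamed IDs (chosen after seeing the data), 221 with a filter at 5 TPM, 160 with a pseudocount of 0.1, 163 in pools 7, 9 and 10 alone, 71 within pools 5 to 8 and 39 with a minimum log2 fold of 1. With the pool as replicate block it was 162 over 13 libraries and 205 over 9. Lower genes went from 1538 to 713 within pools 5 to 8 and 488 with the minimum fold, and list members called from 251 to 109 and 105. Other planned settings kept these counts within 1.5 times. Without 1 library the counts ranged from 195 to 356 higher, from 1090 to 1568 lower, and from 168 to 250 list members. Higher genes fell to 195 without the citrine-positive library of pool 9 and 216 without that of pool 10. Of the 178 named genes that were called, 175 remained so with median-of-ratios scaling and 137 with a pseudocount of 0.1. With the replicate block 141 remained over 13 libraries and 144 over 9, and 121 to 168 remained without 1 library. The cause was not tested, beyond the fewer libraries that some settings hold.

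Signs turned only for genes that were not called. With the replicate block over 9 libraries the log2 fold change was 0.0365 for COL14A1 and 0.0933 for PRPH, and over 13 libraries 0.20 for PRPH and 0.0889 for ALDH1A2. PRPH was also at 0.0933 in pools 7, 9 and 10 alone, with or without the block. Within pools 9 and 10, COL14A1 was at 0.0440, MYL7 at -0.87 and PRPH at 0.24. Within pools 5 to 8, col16a1 was at -0.24, POSTN (ENSDARG00000043806) at -0.28, COL4A1 at -0.40 and ALDH1A2 at 0.20. Median-of-ratios scaling gave 0.17 for PRPH and 0.30 for ALDH1A2. Removing the 15 unnamed IDs gave 0.19 and 0.32, and removing 2 of them 0.0398 and 0.16, in the same order. Without erythroid genes krt8 was at -0.00957. Without 1 library, MYL7 ranged from -1.24 to 0.72, tpm4a from -0.0153 to 0.78, PRPH from -0.22 to 0.0578, ALDH1A2 from -0.17 to 0.20 and krt8 from -0.0848 to 0.15. Depth is unknown, so a TPM of 0 sets no upper limit.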

Other observations

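The rises that follow the 15 largest by the same rule include further secreted and matrix proteins. That rule took only genes without overlap, so their separation is no finding. PTX3, a long pentraxin that binds pathogens and matrix, measured 189, 333 and 44.4 TPM against 4.65 to 41.4 TPM with a median of 18.1 (log2 fold change 3.08 ± 0.66, adjusted p = 0.00388). CTHRC1 (ENSDARG00000087198), a secreted collagen triple helix repeat protein of activated mesenchyme, measured 43, 32.7 and 34.2 TPM against 1.38 to 8.43 TPM with a median of 3.52 (log2 fold change 3.02 ± 0.62, adjusted p = 0.00307), and HTRA1 (ENSDARG00000032831), a secreted serine protease, 15.2, 29.4 and 42.3 TPM against 0.62 to 11.7 TPM with a median of 2.62 (log2 fold change 2.88 ± 0.55, adjusted p = 0.00151). None of these genes overlapped between the sorts. VASN (ENSDARG00000099266), the TGF-beta-binding protein vasorin, was at 23.2, 35.9 and 42.8 TPM against 1.69 to 11.3 TPM with a median of 5.31 (log2 fold change 2.54 ± 0.49, adjusted p = 0.00193), SLC38A4, an amino acid transporter, at 38.2, 89.3 and 10.1 TPM against 2.04 to 9.55 TPM with a median of 5.24 (log2 fold change 2.56 ± 0.65, adjusted p = 0.0146) and krt15, a keratin like krt4 and krt91, at 745, 2218 and 1283 TPM against 152 to 308 TPM with a median of 268 (log2 fold change 2.45 ± 0.38, adjusted p = 2.12e-04). BICDL1 (2.82 ± 0.48) and AMPD2 (ENSDARG00000029952) (2.46 ± 0.60) and the proteoglycan snorc (2.92 ± 0.71) complete the new names among ranks 16 to 30. On the other side grna.1 (-6.77 ± 0.62), fcer1g (-6.69 ± 0.99), mibp (-6.39 ± 0.72), cd74b (-6.22 ± 0.59) and c1ql1 (-6.20 ± 0.59) fell, and grna.2, a granulin, was listed at 0 in all citrine-positive libraries. Single libraries moved some of these values by over 1.5 times. Where the citrine-positive library of pool 9 was dropped, the log2 fold change was 2.47 for PTX3, 1.86 for SLC38A4, 1.73 for snorc and -7.18 for c1ql1. PTX3, SLC38A4 and snorc were not called there (limma's adjusted p = 0.0514, 0.147 and 0.109). AMPD2 (ENSDARG00000029952) was not called without the citrine-positive library of pool 10 (adjusted p = 0.0831). CTHRC1, HTRA1, VASN, krt15 and BICDL1 stayed called in all 9 fits without 1 library. The log2 fold change was 3.91 for PTX3, 3.37 for SLC38A4, 3.80 for snorc and -7.41 for fcer1g without the citrine-positive library of pool 10.

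Of the 338 higher genes, 88 were highest in the citrine-positive library of pool 7, 120 in that of pool 9 and 130 in that of pool 10. The highest citrine-positive library exceeded the next by more than 3 times for 12 genes in pool 7, for 30 in pool 9 and for 2 in pool 10. Among the 30 genes of pool 9, named here after their values were seen, were C1QTNF12 (2.75, 40.1 and 2.51 TPM in pools 7, 9 and 10), MELTF (6.91, 28.2 and 1.64 TPM) and epha4b (1.6, 14 and 1.49 TPM), beside RSPO1, VIT, lamc3, krt91, CYP26B1 and THBS4 (ENSDARG00000102777) described above. Of the 30 genes, 27 had no overlap with the double-negative libraries, and RARG (ENSDARG00000054003), brinp2 and fam169ab overlapped. Among all 338 higher genes 290 had no overlap, a like share, so this is not particular to the genes of pool 9.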
